A study of Mus musculus with 768 samples.

Results

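Cells with many transcripts of mitotic genes were compared with cells that had few, among mouse cells caught 24 and 30 h after the start of a forced conversion into motor neurons. The members are 74 single cells of the 768 in the series. Among cells with at least 2000 genes above 0, the members were chosen by the mean log2(TPM + 1) of Mki67, Top2a, Cdk1, Ccnb1, Aurkb and Bub1 in each cell, and the top tertile of each time point was set against the bottom tertile. TPM is the abundance of a gene's transcripts per length, scaled to the same total in each cell. The top tertile is called cycling here and the bottom tertile quiet. At 24 h the 18 cycling cells had a median score of 6.42 and the 18 quiet cells one of 1.498. At 30 h the 19 cycling cells had a median score of 6.61 and the 19 quiet cells one of 1.17. The remaining 19 cells of each time point are the middle tertile. The lines between tertiles cut through a continuous range. At 24 h the lowest cycling cell scored 5.26 beside a middle cell at 5.25, and the highest quiet cell scored 3.13 beside a middle cell at 3.20. At 30 h the same edges were 5.34 beside 5.08, and 2.16 beside 2.47.

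All cells, cycling and quiet alike, came from Ainv15 mouse embryonic stem cells that carry iNgn2.Isl1.Lhx3.V5, a doxycycline-inducible cassette of Neurog2 (Ngn2), Isl1 and Lhx3 with a V5 tag. The stem cells were grown as embryoid bodies for 2 days and then received 3 µg/ml doxycycline, with collection at 8 times up to 48 h. Viable cells, marked by fluorescein diacetate, were sorted 1 per well, 96 for each time. Their RNA was read by SMART-Seq2, a full-length single-cell method, with single-end reads of 50 bp and no molecular identifiers. No label names separate cultures, so each time point counts as 1 sample. Cells of 1 sample are not replicates, and no p-value or standard error is given. The 24 and 30 h contrasts share no cell, and the values that matter most are given at both times, the others as the average of the 2.

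Dividing cells make the mRNAs of mitotic regulators late in each cycle, when cyclin B and its kinase Cdk1, the Aurora kinases and the spindle checkpoint proteins act, and destroy them after division. A cell in G1 therefore also has few of these mRNAs, and the score cannot tell it from a cell that has left the cycle for good. In the developing nervous system, proneural factors such as Neurog2 drive progenitors out of the cycle while they start the neuronal programme, and neurons once formed do not divide again. Pluripotent stem cells, at the other end, cycle fast with a short G1 phase.

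The labels speak of 2 library batches without saying which cells each holds. The deposited values hold no depth, so the number of genes above 0 is the nearest measure. Cycling cells had more of them, with a median of 7171 genes against 6379.5 in quiet cells at 24 h, and of 6860 against 6158 at 30 h. Across the 55 kept cells at 24 h the score and the number of genes had a Spearman correlation of 0.297, and across the 57 at 30 h one of 0.470, as a description. For that reason list medians and many single genes are also given depth balanced, with tertiles taken inside 3 bins of the number of genes. The medians then were 6824.5 genes in cycling and 6770.5 in quiet cells at 24 h, and 6563.5 and 6428 at 30 h. The mean Sod1 level splits the 8 time points into 6, 18, 24 and 30 h, with 518 to 807 TPM, and the other 4 times, with 19553 to 65262 TPM. The 24 and 30 h cells thus lie on the same side of that split, and each contrast stays within 1 time point.

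Promoters of genes that peak late in the cycle often carry a cell cycle homology region (CHR) and CCAAT boxes. The bases from -120 to -1 before the RefSeq start (assembly GRCm38.p6) are shown for 3 score genes, for Cdca5 and Arhgap19, which are among the 12 highest genes in cycling cells, and for the neuronal gene Tubb3, so that the letters counted next can be seen in place. Capitals mark TTTGAA or TTCGAA (CHR) and CCAAT, each on either strand, so that they also read TTCAAA and ATTGG. The stretches are Top2a, chr11:99024190-99024309, minus strand. Cdk1 is chr10:69352913-69353032, minus strand. Ccnb1 is chr13:100786487-100786606, minus strand. Cdca5 is chr19:6084977-6085096, plus strand. Arhgap19 is chr19:41802085-41802204, minus strand. Tubb3 is chr8:123411433-123411552, plus strand.
Top2a: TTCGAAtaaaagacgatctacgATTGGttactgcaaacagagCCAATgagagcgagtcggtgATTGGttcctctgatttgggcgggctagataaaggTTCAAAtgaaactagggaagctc
Cdk1: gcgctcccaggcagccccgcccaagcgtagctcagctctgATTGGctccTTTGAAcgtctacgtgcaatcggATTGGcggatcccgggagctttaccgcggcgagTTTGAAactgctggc
Ccnb1: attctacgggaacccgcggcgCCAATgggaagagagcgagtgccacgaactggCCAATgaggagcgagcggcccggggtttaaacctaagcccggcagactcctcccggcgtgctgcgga
Cdca5: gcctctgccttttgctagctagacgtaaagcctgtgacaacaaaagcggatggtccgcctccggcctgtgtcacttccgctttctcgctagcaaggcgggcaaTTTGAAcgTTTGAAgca
Arhgap19: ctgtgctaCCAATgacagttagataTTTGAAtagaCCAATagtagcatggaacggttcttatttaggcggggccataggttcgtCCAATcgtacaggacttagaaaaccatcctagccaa
Tubb3: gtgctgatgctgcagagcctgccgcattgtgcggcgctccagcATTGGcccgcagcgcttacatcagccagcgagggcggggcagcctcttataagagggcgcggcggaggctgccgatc

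In the wider window of 300 bases, from 250 before to 50 after the start, TTTGAA or TTCGAA stood in 49 of 76 promoters of the other mitosis genes (64.5%) and in 16 of 90 of the DNA replication genes (17.8%). Of all 27025 RefSeq promoters, 19.4% held it, and of the 4219 promoters of genes passing the filter 15.2%. Outside the cell cycle lists, it stood in 21.0% of 233 promoters of genes at least 2-fold higher in cycling cells and in 9.57% of 209 of genes at least 2-fold lower. The higher genes include some that are known to act in division but are not on those lists, such as Cdca5 and Arhgap19. CCAAT stood in 43.3% of the promoters of the higher genes and in 36.4% of those of the lower genes. It stood in 41.5% of the promoters of genes passing the filter and 37.9% of all promoters. The 2 motifs were searched separately and may share bases. A match is only these letters in this window and is not a measured binding site.

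The 6 score genes chose the cells, so their values describe the choice. Mki67, the proliferation marker, had a median of 37.6 TPM in cycling cells at 24 h (lowest 0, highest 109) and of 0 in quiet cells (highest 1.64). At 30 h its median was 39.1 TPM in cycling cells (5.75 to 112) and 0 in quiet cells (highest 2.14). Cdk1, the kinase that drives entry into mitosis, had a median of 179 TPM in cycling cells at 24 h (88.0 to 470) and of 1.86 in quiet cells (0 to 76.5). At 30 h it had 196 TPM (0 to 634) in cycling cells and 0 (highest 45.0) in quiet cells. The groups did not overlap for Cdk1 at 24 h, and at 30 h they overlapped, with 18 of 19 cycling and 9 of 19 quiet cells above 0. The average log2 fold changes of the 6 genes, log2 of the ratio of mean TPM + 1, ran from 3.54 for Bub1, a spindle checkpoint kinase, to 5.12 for Mki67.

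Other genes of the cycle follow the same split in the same cells. Of 96 further mitosis genes that passed the filter (a mean of at least 10 TPM and a value above 0 in at least 25% of the kept cells at 24 and 30 h), 74 were at least 2-fold higher in cycling cells on average of the 2 times and 0 were at least 2-fold lower, with a median log2 fold change of 1.89 (1.90 at 24 h, 1.92 at 30 h and 1.66 with depth balance). Of all 5424 genes that passed, 8.24% were at least 2-fold higher and 5.35% at least 2-fold lower. Of the 5206 outside the cell cycle, 5.94% were higher and 5.55% lower by as much, with a median of 0.03. Aurka, the Aurora kinase of the spindle poles, had a median of 126 TPM in cycling cells at 24 h (0 to 267) and of 0 in quiet cells (highest 11.6), and of 151 TPM (3.84 to 395) against 0 (highest 49.8) at 30 h. It gave the largest average of the list, 5.66, or 3.93 with depth balance. Ube2c, a ubiquitin-conjugating enzyme that works with the anaphase promoting complex, followed with 4.81. Of 112 DNA replication and S phase genes, 56 were at least 2-fold higher and 1, the G1 cyclin Ccnd2 at -1.30, at least 2-fold lower, with a median of 0.99 (0.80 at 24 h, 1.05 at 30 h and 0.80 with depth balance). Summed over the list, replication transcripts had a median of 10850 TPM in cycling and 6077 TPM in quiet cells at 24 h, and of 9783 and 5155 TPM at 30 h, so quiet cells retained a sizeable amount of them. Of 62 replication-dependent histone genes only 5 passed. Most mRNAs of this kind lack a poly(A) tail. H1f4, a linker histone, was highest at 3.07.

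Outside the cell cycle lists, 309 of 5206 genes were at least 2-fold higher in cycling cells and 289 at least 2-fold lower. With depth balance 197 were higher and 330 lower, and with a pseudocount of 10 TPM 102 were higher and 117 lower. The 2 time points repeat each other in part. Of 468 genes at least 2-fold higher at 24 h (8.99% of those tested), 118 were also at least 2-fold higher at 30 h and 27 were at least 2-fold lower there. Those 118 are 25.2% of the 24 h genes and 23.9% of the 493 at 30 h, where the background was 9.47%. Of 462 genes at least 2-fold lower at 24 h (8.87%), 117 were lower by as much at 30 h (25.3%, or 25.9% of the 452 at 30 h), where 8.68% of all genes were, and 21 were at least 2-fold higher. The 24 and 30 h changes of the 5206 genes had a Spearman correlation of 0.28 across genes, which are not independent.

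**Figure D1:**
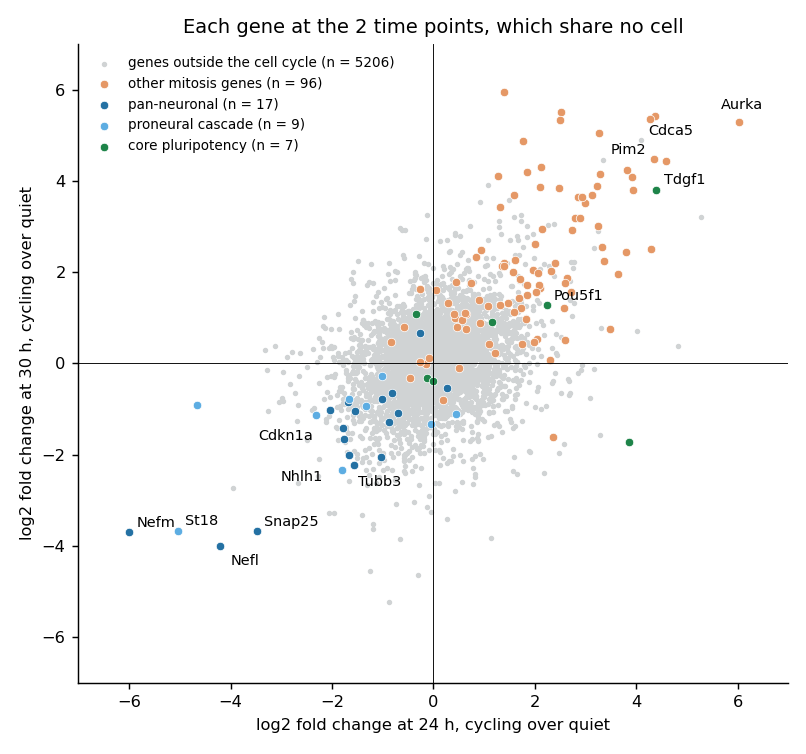
Log2 fold changes of cycling over quiet cells at 24 h (x axis) and 30 h (y axis), 1 point per gene; 5206 genes outside the cell cycle are grey and 4 lists are coloured. Mitosis genes fill the upper right, while Nefl, Nefm, St18 and Snap25 stand apart at the lower left, below -3 at both times.

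Of the 12 genes highest in cycling cells, ranked by the smaller of their 2 changes, several are known to act in division although the fixed cell cycle lists do not hold them. Cdca5 (sororin), which holds sister chromatids together, had a median of 85.0 TPM in cycling cells at 24 h (0 to 387) and of 0 in quiet cells (highest 73.8). By 30 h it had 62.3 TPM (0 to 298) in cycling cells and 0 (highest 32.7) in quiet cells, and the average log2 fold change was 4.49. Its values were above 0 in 17 of 18 and 18 of 19 cycling cells, against 4 of 18 and 3 of 19 quiet cells. Arhgap19, a GTPase activating protein with a part in cytokinesis, averaged 3.07, or 2.09 with depth balance. The averages were, for Spdl1 (spindly, which brings dynein to kinetochores) 2.43, Traip, a ubiquitin ligase at stalled replication machinery, 2.20, and Shcbp1, a protein of the midbody, 2.08. H2ax, the histone variant that is phosphorylated at DNA breaks, averaged 2.65, with medians of 16.6 and 24.5 TPM in cycling cells against 1.11 and 0 TPM in quiet cells at 24 and 30 h. Zfx, a zinc finger factor coded on the X chromosome, averaged 2.47, or 1.49 with depth balance, with 6 of 18 cycling against 2 of 18 quiet cells above 0 at 24 h and 6 of 19 against 5 of 19 at 30 h. The Cdca5 and Arhgap19 promoters printed above both hold TTTGAA.

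**Figure D2:**
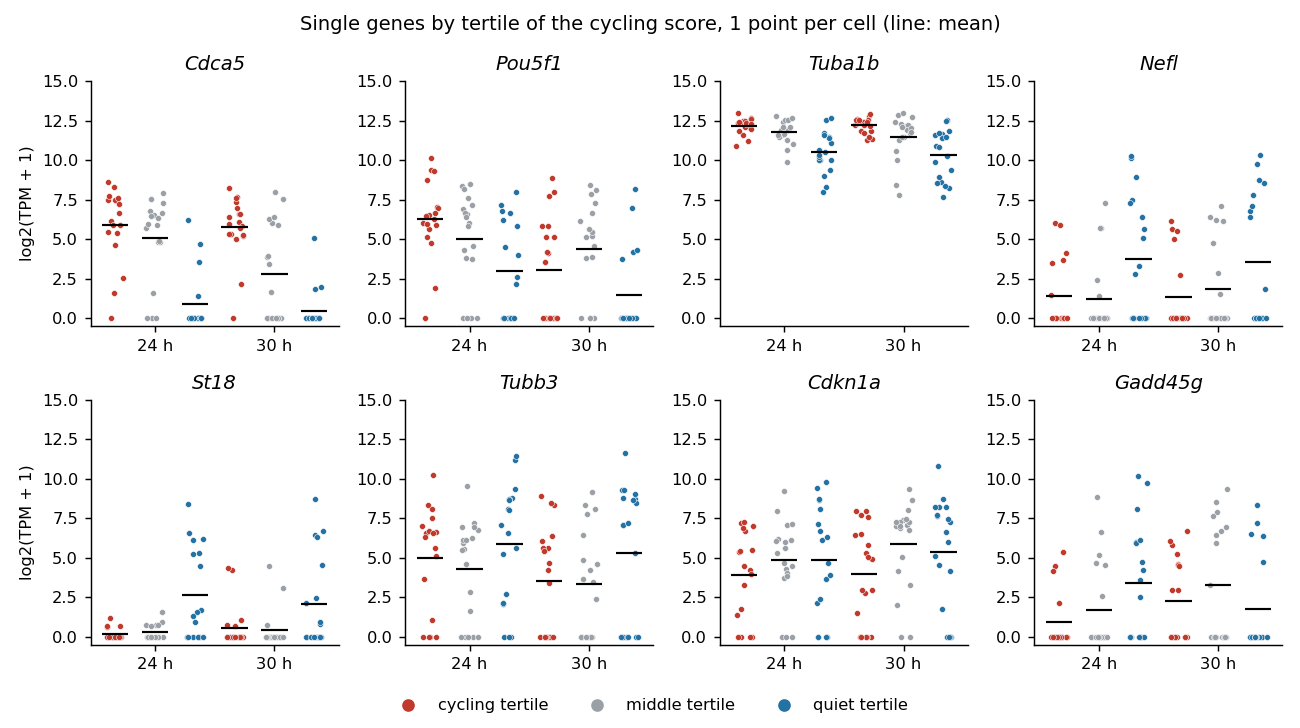
Log2(TPM + 1) of 8 genes at 24 and 30 h in the cycling, middle and quiet tertiles, with 1 point per cell and a line at the mean. Cdca5 and Tuba1b are higher in cycling cells, and St18 is above 6 only in quiet cells, at both times. Nefl is highest in quiet cells, but at 24 and 30 h it reaches 6.02 and 6.14 in cycling cells and 7.28 and 7.12 in middle cells.

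By list median, core pluripotency transcripts were higher in cycling than in quiet cells, and the middle tertile was above the quiet one as well. Of 13 core pluripotency genes 7 passed the filter, of which 4 were at least 2-fold higher in cycling cells and 0 at least 2-fold lower, where the background is 5.94% and 5.55%. Only 3 of the 7 were above 0 at both times, and 2 were below 0 at both. Summed over the 13 genes, the medians were 904 TPM in cycling and 611 TPM in quiet cells at 24 h. At 30 h they were nearly equal, with 535 and 510 TPM. The median log2 fold change of the 7 genes was 1.03, against 0.03 for all genes, with 1.16 at 24 h and 0.90 at 30 h, and 1.11 with depth balance. Under 9 other settings the median was between 0.35, with cells split at the median score, and 0.84. Pou5f1 (Oct4), the central pluripotency factor, had a median of 80.8 TPM in cycling cells at 24 h (0 to 1097) and of 4.25 TPM in quiet cells (0 to 249). At 30 h its median was 10.5 TPM in cycling cells (0 to 456) and 0 in quiet cells (0 to 289). It was above 0 in 17 of 18 cycling against 10 of 18 quiet cells at 24 h, and in 10 of 19 against 5 of 19 at 30 h. The groups overlapped, and the log2 fold changes were 2.23 and 1.28, or 1.44 on average with depth balance.

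The mean log2(TPM + 1) of the 7 genes had a median of 4.83 in cycling cells, 4.45 in the middle tertile and 3.59 in quiet cells at 24 h. The 30 h median was highest in the middle tertile, with 4.13 in cycling and 3.18 in quiet cells. Set against quiet cells, the middle tertile had a median log2 fold change of 1.28 over these genes.

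Not every pluripotency gene behaved alike. Tdgf1 (Cripto), the Nodal co-receptor, had the largest average of the list, 4.10, but few cells carried it. It was above 0 in 8 of 18 cycling and 3 of 18 quiet cells at 24 h, and in 4 of 19 and 3 of 19 at 30 h, with a highest cell at 250 TPM against 10.4 TPM and at 353 TPM against 25.2 TPM. Dppa5a, an abundant stem cell transcript, had medians of 478 TPM in cycling and 209 TPM in quiet cells at 24 h, and of 285 and 166 TPM at 30 h, and its average turned to -0.22 with all cells, those under 2000 genes included. Nanog changed direction, with 3.86 at 24 h and -1.72 at 30 h. Its 30 h value came with 1 quiet cell at 1398 TPM, when 8 of 19 cycling and 7 of 19 quiet cells were above 0. Sall4 at -0.20 and Dppa4 at -0.22 hardly differed. Of 8 formative or primed genes, Fgf5 at 1.79 and Etv5 at 1.58 were at least 2-fold higher (background 5.94%). Of the 8 genes, 0 were at least 2-fold lower (background 5.55%). Depth balance took Fgf5 to 0.56, and with all cells Etv5 was at -0.59. Otx2, the epiblast and forebrain factor, was at -0.79. Of 13 naive genes only Zfp42 passed, with -1.27 at 24 h and 0.77 at 30 h.

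Fgf15, a growth factor of early neural tissue, was above 0 in 8 of 18 cycling cells at 24 h, up to 171 TPM, and was listed at 0 in all 18 quiet cells. A count of 0 in 18 cells allows a share of up to 16.7% of cells above 0, counting error only. At 30 h Fgf15 was above 0 in 9 of 19 cycling cells, up to 224 TPM, and in 2 of 19 quiet cells, up to 27.2 TPM. Its average log2 fold change was 4.23, or 1.53 with depth balance. In the middle tertile it was above 0 in 6 of 19 cells at 24 h and in 4 of 19 at 30 h. The mean there was 54.4 TPM at 24 h, against 37.5 TPM in cycling cells, and 21.2 against 30.1 TPM at 30 h. Pim2, a survival kinase known as a target of cytokine signalling, had a median of 3.22 TPM in cycling cells at 24 h (0 to 962) and of 1.85 TPM in quiet cells (0 to 32.3). At 30 h it had 10.6 TPM (0 to 330) in cycling cells and 0 (highest 24.4) in quiet cells. It was above 0 in 11 of 18 cycling against 10 of 18 quiet cells at 24 h, and in 13 of 19 against 4 of 19 at 30 h. Its log2 fold changes were 3.34 and 4.46, or 3.31 on average with depth balance. Among 7 neural progenitor genes, Id2 at 2.21, Fabp7 at 1.49 and Id3 at 1.07 were at least 2-fold higher in cycling cells (background 5.94%). Of the 7 genes, 0 were at least 2-fold lower (background 5.55%). Id proteins are known to block helix-loop-helix factors, and Fabp7 is a lipid carrier of radial glia. Depth balance left 0.73, 0.86 and 0.61. Vim, the intermediate filament gene of progenitors, was at -0.89. Cdh1, the epithelial cadherin of stem cells, averaged 2.03, or 0.81 with depth balance. T (Brachyury), the factor of the primitive streak, was at 2.52 at 24 h and -0.65 at 30 h.

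Neuronal transcripts were lower in cycling cells. Of 26 pan-neuronal genes 17 passed, and 15 of these were below 0 at both times. On average 12 were at least 2-fold lower in cycling cells (background 5.55%) and 0 at least 2-fold higher (background 5.94%). The filter pooled all tertiles, so a gene could reach a mean of 10 TPM through quiet cells alone, which fixed its direction. Nefm was such a gene, with means of 0.498 TPM in cycling, 6.56 TPM in middle and 94.5 TPM in quiet cells at 24 h. Its 30 h means were 3.38, 6.42 and 56.0 TPM. The count of 12 is thus a description and no independent support. The median log2 fold change of the 17 genes was -1.53, against 0.03 for all genes. It was -1.56 at 24 h, -1.28 at 30 h and -1.40 with depth balance. With all 96 sorted cells of each time, cells under 2000 genes included, it was 0.0042. The filter was then run anew on those cells, so that median need not rest on the same 17 genes. Of 142 named genes that passed in the main setting, 108 passed with all cells. The neurofilament genes Nefl and Nefm, which code for the axon's intermediate filaments, differed by more than the other 15 genes. Nefl had a median of 0 in cycling cells at 24 h (highest 64.0) and of 7.46 TPM in quiet cells (0 to 1210). At 30 h the medians were 0 in both, with a highest cell of 69.6 TPM among cycling and of 1282 TPM among quiet cells. It was above 0 in 6 of 18 cycling and 10 of 18 quiet cells, then in 5 of 19 and 9 of 19, and the log2 fold changes were -4.21 and -4.01. Nefm reached 5.51 TPM in cycling cells at 24 h, against 640 TPM in quiet cells, and 18.9 against 462 TPM at 30 h, with log2 fold changes of -5.99 and -3.70.

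The difference in neurofilaments lies in the height of a minority of quiet cells more than in how many cells are above 0. Nefm was above 0 in 22.2% of cycling cells at 24 h (95% Clopper-Pearson interval 6.41 to 47.6) and in 50.0% of quiet cells (26.0 to 74.0), and in 31.6% (12.6 to 56.6) and 36.8% (16.3 to 61.6) at 30 h. These intervals cover counting error only and overlap. Snap25, of the synaptic vesicle fusion machinery, averaged -3.58, or -2.17 with depth balance, while being above 0 in 8 of 18 cycling and 7 of 18 quiet cells at 24 h. Tubb3, the neuronal beta tubulin, had a median of 85.3 TPM in cycling cells at 24 h (0 to 1182) and of 114 TPM in quiet cells (0 to 2760). Its 30 h medians were 17.7 TPM (0 to 482) in cycling and 132 TPM (0 to 3150) in quiet cells, with log2 fold changes of -1.56 and -2.22. Stmn2, a microtubule regulator of growth cones, had 29.6 against 201 TPM at 24 h and 68.0 against 101 TPM at 30 h, and its average of -1.26 turned to 0.88 with all cells. Of 4 axon guidance and adhesion genes that passed, 2 were at least 2-fold lower (background 5.55%) and 0 at least 2-fold higher (background 5.94%). The 2 were Cntn2 at -1.67, an adhesion protein of axons, and Robo2 at -1.13, a Slit receptor. With all cells Cntn2 and Robo2 were at 0.64 and 0.48. The exceptions among the pan-neuronal genes were Elavl2 at -0.14, an RNA-binding protein, and Crmp1 at 0.20, a growth cone signalling protein.

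The proneural cascade list was lower too. It holds transcription factors that follow Neurog2, and also genes such as Srrm4 and Gadd45g, which are not transcription factors. Of 24 genes 9 passed, 6 at least 2-fold lower in cycling cells (background 5.55%) and 0 at least 2-fold higher (background 5.94%). The median was -1.23 (-1.67 at 24 h and -1.12 at 30 h), and -1.22 with depth balance. With all cells, where the filter was run anew and the same 9 genes need not pass, it was 0.14. St18 (Myt3), a zinc finger factor of new neurons, was low in cycling cells, with a highest value of 1.31 TPM at 24 h and of 18.9 TPM at 30 h. Quiet cells reached 334 and 412 TPM, and 11 of 18 and 9 of 19 of them were above 0, against 4 of 18 and 5 of 19 cycling cells. Its log2 fold changes were -5.03 and -3.66. The highest middle cell was at 1.58 as log2(TPM + 1) at 24 h, so the mean of at least 10 TPM there rested on quiet cells. Nhlh1, a helix-loop-helix factor switched on as neurons form, was at -1.80 and -2.33. Srrm4, the splicing regulator of neuronal microexons, had a median of 7.36 TPM in cycling and 102 TPM in quiet cells at 24 h, and of 30.1 and 84.9 TPM at 30 h. Gadd45g, a growth arrest and DNA damage inducible gene, was above 0 in 4 of 18 cycling and 10 of 18 quiet cells at 24 h, with -4.67. At 30 h it was above 0 in 9 of 19 cycling and 5 of 19 quiet cells, with -0.91, so its 2 times differ.

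Outside these lists the genes lowest in cycling cells included Chga (chromogranin A, of dense core vesicles) at -2.62 (0.62 with all cells) and Clvs1 (clavesin, of clathrin-coated vesicles in neurons) at -2.18. They also held Anxa2, a calcium-dependent membrane protein, at -2.65, and Bad, a promoter of cell death, at -1.83. Car3, a carbonic anhydrase, averaged -2.38, but -1.37 with depth balance, -1.68 without the highest cell of each group at each time, and 0.022 with all cells. The highest quiet cell reached 881 TPM in the 24 h sample and 1107 TPM in the 30 h one, and 6 of 18 cycling against 11 of 18 quiet cells, then 11 of 19 against 8 of 19, were above 0. Anxa2 was above 0 in 4 of 18 cycling against 11 of 18 quiet cells at 24 h and in 2 of 19 against 7 of 19 at 30 h. Rhox8, a homeobox gene, averaged -3.34, yet 1 quiet cell at each time reached 489 and 953 TPM, and with depth balance it was at 0.84. Of the 12 motor neuron genes only Lmo4 passed, at -0.56. Markers of sensory, glial and other neurons (14 in the table, 0 passing) summed to medians of 0 TPM in cycling cells at both times and of 0 and 1.45 TPM in quiet cells at 24 and 30 h, with Sox10, Aqp4, Gad1, Th and Lbx1 at 0 in all 74 cells. Endoderm markers (10, 0 passing) summed to a median of 0 in all 4 groups, with Sox17, Foxa2, Gata6, Ttr, Apoa1 and Hnf4a at 0 in every cell.

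The induced factors themselves were present in both groups. Isl1, the LIM homeodomain factor of motor neurons, had a median of 3.42 TPM in cycling cells at 24 h (0 to 56.3) and of 11.0 TPM in quiet cells (0 to 129), then of 12.1 TPM (0 to 181) against 25.4 TPM (0 to 463) at 30 h. Its log2 fold changes were -1.35 and -1.003. Lhx3, its partner, had medians of 8.70 against 26.4 TPM and of 14.9 against 12.8 TPM, and averaged -0.30. Neurog2 was too low to pass, with at most 14.5 TPM in any member. The table gives 1 value per gene, so cassette and native transcripts cannot be told apart.

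The quiet tertile was not uniform. A pan-neuronal score, the mean log2(TPM + 1) of the 17 genes, had a median of 3.61 in cycling cells at 24 h (1.22 to 6.07), of 3.35 in the middle tertile (1.37 to 6.33) and of 5.35 in quiet cells (1.04 to 8.42). At 30 h the medians were 3.20 in cycling cells (1.13 to 6.49), 3.20 in the middle tertile (1.33 to 6.56) and 4.77 in quiet cells (0.71 to 8.08). At 24 h 5 of 18 quiet cells scored above every cycling cell, and 5 scored below the cycling median. At 30 h 4 of 19 scored above every cycling cell, and 7 below the cycling median. In the middle tertile 2 of 19 cells at 24 h and 1 of 19 at 30 h also scored above every cycling cell. The medians of the middle tertile were thus close to those of the cycling one, and most of the cells above every cycling cell were quiet. Over all kept cells the rank correlation of the 2 scores was weak, with Spearman values of -0.19 at 24 h (n = 55) and of -0.15 at 30 h (n = 57).

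**Figure D3:**
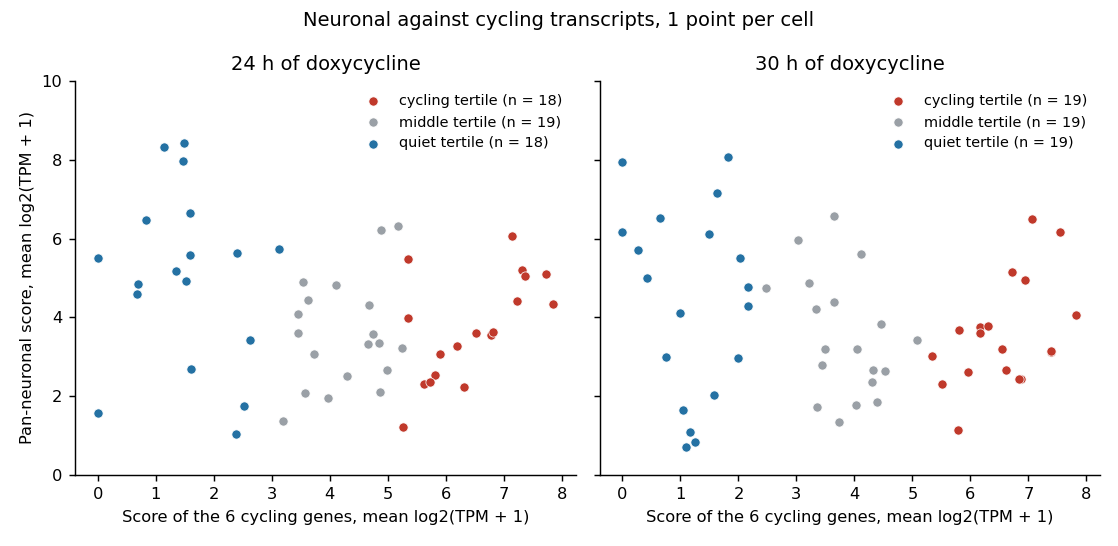
Pan-neuronal score (y axis) against the 6-gene cycling score (x axis) of each cell, both as mean log2(TPM + 1), at 24 h and 30 h, coloured by tertile. The cells above the highest cycling cell, 6.07 at 24 h and 6.49 at 30 h, are mostly quiet, and other quiet cells lie below 3.

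Within the cycling cells the neuronal and cycling scores went up together, with rank correlations of 0.56 at 24 h (n = 18) and 0.49 at 30 h (n = 19), and both also go with the number of genes per cell. The pan-neuronal score and the number of genes had rank correlations of 0.54 and 0.26 in these cells. Among quiet cells the number of genes went with the pan-neuronal score as well, with rank correlations of 0.61 at 24 h (n = 18) and 0.27 at 30 h (n = 19). The quiet cells, which as a group had fewer genes, thus had the higher neuronal scores where they had more genes. Neuronal and pluripotency scores ran against each other in cycling cells, with rank correlations of -0.82 at 24 h and -0.35 at 30 h. In quiet cells the values were -0.14 and -0.42, and over all kept cells -0.53 and -0.42, so this was not particular to cycling cells. All of these are descriptions of cells from 1 sample each, with no test.

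Of the genes that hold cells in G1, only some were on the quiet side. Cdkn1a (p21), a Cdk inhibitor, had a median of 19.1 TPM in cycling cells at 24 h (0 to 154) and of 46.6 TPM in quiet cells (0 to 874). At 30 h it had 29.7 TPM (0 to 251) in cycling and 97.3 TPM (0 to 1773) in quiet cells. The groups overlapped and a like number of cells was above 0, 14 of 18 in both groups and 14 of 19 against 15 of 19. The log2 fold changes were -1.88 and -1.69, and the average was -1.15 with depth balance and 0.70 with all cells. The Cdkn1a median of the middle tertile lay between those of cycling and quiet cells at 24 h. At 30 h it was above the quiet one, with 7.00 against 6.62 as log2(TPM + 1), so a high level was not particular to quiet cells. Among quiet cells Cdkn1a and the pan-neuronal score were only weakly related, with rank correlations of 0.21 and 0.19. Cdkn1b (p27), which restrains the cycle in many differentiating cells, was at -0.22. Cdkn2d (p19), an inhibitor of Cdk4 and Cdk6, was higher in cycling cells, at 2.03, but 0.57 with depth balance. Pdcd4, a translation repressor, was at -1.43, or -0.74 with depth balance. The list of 5 passing genes thus held 2 at least 2-fold lower (background 5.55%) and 1 at least 2-fold higher (background 5.94%). Of 10 p53 target genes, 1 (Eda2r, at -1.60) was at least 2-fold lower. Another 1 (Pmaip1, which codes for Noxa, at 2.11) was at least 2-fold higher, and Pmaip1 was at -1.20 with all cells. These calls are 10% of the list each way, near the background of 5.55% lower and 5.94% higher.

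Tubulin genes split by isotype. Tuba1b, the main alpha tubulin of dividing cells, was above 0 in all 74 cells, and the groups overlapped. It had a median of 5091 TPM in cycling cells at 24 h (1897 to 8117) and of 1386 TPM in quiet cells (254 to 6349). The 30 h medians were 5209 TPM (2495 to 7830) in cycling and 1847 TPM (198 to 5963) in quiet cells, and the log2 fold changes were 1.25 and 1.26, or 1.03 with depth balance. Tuba1c averaged 2.18. Tuba1b, Tuba1c and Tuba3a, at 2.50 (-4.28 with all cells), are close paralogs between which short reads can be misassigned, so the values of single isotypes are uncertain. On the other side Tubb3 averaged -1.89, Tubb2a -2.09, Tubb2b -0.99 and Tuba1a -0.68, which are known as the isotypes of young neurons. Tubb5 was at 0.63 and Tubb6 at 0.94.

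The Atf4 and unfolded protein list, the ribosome biogenesis list and the Myc list had medians above that of all genes. Of all genes outside the cell cycle 52.5% were above 0 and 5.94% at least 2-fold higher. The 10 passing genes of the Atf4 and unfolded protein list were all above 0 on average, 3 of them at least 2-fold, with a median of 0.67 (0.73 at 24 h and 0.70 at 30 h) and of 0.47 with depth balance. Summed over the 19 genes of that list, the medians were 1903 TPM in cycling and 1470 TPM in quiet cells at 24 h. The 30 h sums hardly differed, with 1249 and 1268 TPM. Phgdh, the entry enzyme of serine synthesis, had a median of 169 TPM in cycling cells at 24 h (66.3 to 795) and of 39.2 TPM in quiet cells (0 to 312). At 30 h it had 139 TPM (0 to 783) against 76.1 TPM (0 to 412). Psat1, a later enzyme of that pathway, averaged 1.11, and the co-chaperone Dnajb9 1.32, which was -0.10 among cells with at least 4000 genes. Of 29 ribosome biogenesis genes 25 were above 0 and 3 (10.3%) at least 2-fold higher, with a median of 0.49 (0.71 at 24 h and 0.40 at 30 h). Nop58, a core protein of snoRNA particles, had 279 against 103 TPM at 24 h and 401 against 74.5 TPM at 30 h as medians. Of 16 Myc family and Myc target genes 15 were above 0, with a median of 0.40 (0.56 at 24 h and 0.33 at 30 h), and only Srm, the spermidine synthase gene, was at least 2-fold higher (6.25%, near the background).

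Other lists differed less. The median was 0.49 for 11 heat shock and chaperone genes and 0.21 for them with depth balance, 0.36 for 15 HMG and variant chromatin proteins, which include H2ax, 0.19 for 37 hnRNP and SR splicing factors and 0.16 for 11 BAF and Polycomb subunits. It was 0.21 for 15 glycolysis genes, 0.08 for 34 proteasome subunits, -0.19 for 75 nuclear genes of oxidative phosphorylation, -0.06 for 20 cholesterol synthesis genes and -0.01 for 76 cytosolic ribosomal protein genes. Rps29, whose transcript is short, stood out from the ribosomal genes at -1.33. Its medians were 2956 TPM in cycling and 3252 TPM in quiet cells at 24 h, and 3381 and 3185 TPM at 30 h, so the mean rests on a few quiet cells, of which the highest had 35324 and 99823 TPM. Of 19 lysosome and autophagy genes 15 were below 0, where 47.5% of all genes were, and the median was -0.46 (-0.44 at 24 h and -0.36 at 30 h). Only Gabarapl1, an autophagosome protein, was at least 2-fold lower, at -1.74, which is 5.26% of the list beside a background of 5.55%. Ctsd, the lysosomal protease cathepsin D, had medians of 91.6 against 138 TPM at 24 h and of 82.8 against 168 TPM at 30 h.

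**Figure D4:**
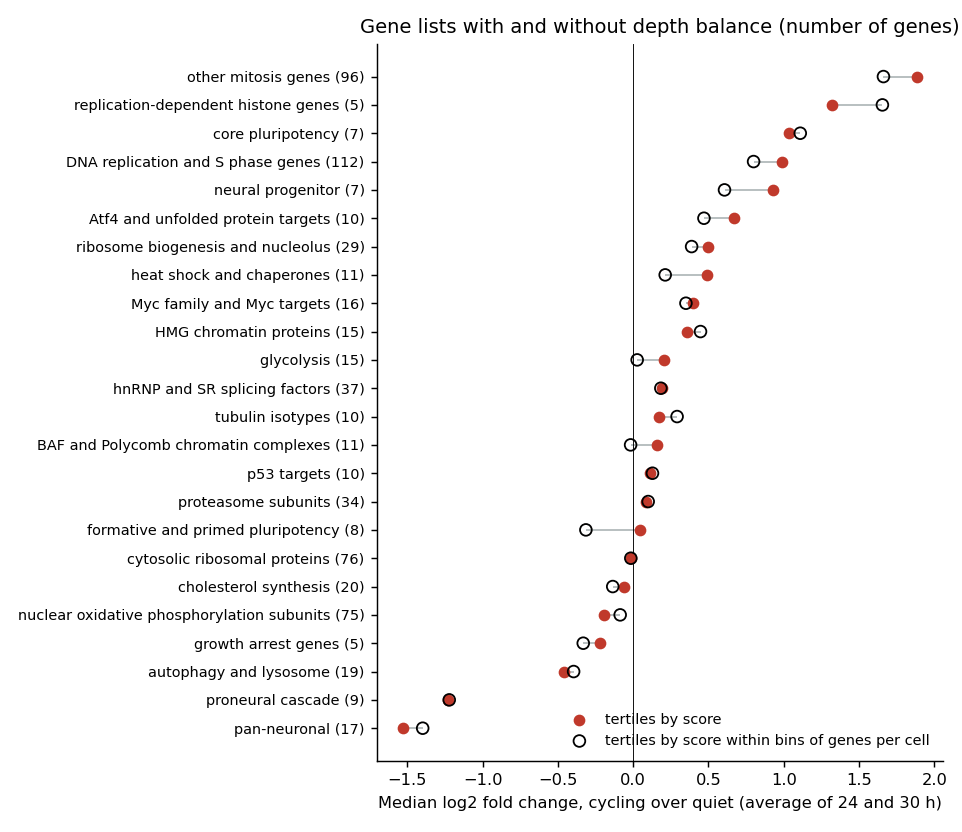
Median log2 fold change of cycling over quiet cells, averaged over 24 and 30 h, for the gene lists with at least 5 passing genes (y axis, number of genes in brackets). Filled points are tertiles by score and open points tertiles taken inside bins of genes per cell; pan-neuronal genes are at -1.53 and -1.40 and the formative list moves across 0.

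The rule did not use the 6 and 18 h cells, which lie on the same side of the Sod1 split. There the same score and tertiles gave 17 cycling and 17 quiet cells at 6 h and 18 and 18 at 18 h. The depth gap was larger, with medians of 7702 genes in cycling against 5670 in quiet cells at 6 h, and of 8268.5 against 6794.5 at 18 h. All 5206 genes had a median of 0.32 at 6 h and of 0.18 at 18 h, so values there are read against that shift. Of the 309 genes higher in cycling cells at 24 and 30 h, 79.9% were above 0 at 18 h, against 59.7% of all genes, and 74.1% at 6 h, against 65.2%. Of the 289 lower genes, 70.9% were below 0 at 18 h, against 40.3% of all genes, and 57.1% at 6 h, against 34.8%. At least 2-fold in the same direction were 35.3% of the higher genes at 18 h (12.9% of all) and 28.4% of the lower genes (7.55% of all). At 6 h these shares were 34.0% (17.8% of all) and 25.3% (7.41% of all).

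The pan-neuronal median was 0.01 at 6 h and -0.90 at 18 h. The proneural median was -0.22 and -0.45. Per cell, the pan-neuronal score at 18 h had a mean of 3.68 in cycling and 3.67 in quiet cells. Tubb3 was at 1.67 at 6 h, with means of 184 TPM in cycling and 57.1 TPM in quiet cells, and at -1.46 at 18 h, with 55.3 and 154 TPM. Core pluripotency genes had a median of -0.28 at 6 h and of 0.69 at 18 h, while Pou5f1 was at 0.62 and 1.87. The other mitosis genes kept a high median, 1.35 at 6 h and 1.76 at 18 h. Whether these differences between times exceed the spread of repeated cultures was not tested, since each time is 1 sample. The 0, 12 and 36 h cells, which lie on the other side of the Sod1 split and were added after the data were seen, gave pan-neuronal medians of 0.26, -1.08 and -1.29 and core pluripotency medians of 0.59, 0.35 and 0.31. All genes had medians of 0.20, 0.05 and 0 there.

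**Figure D5:**
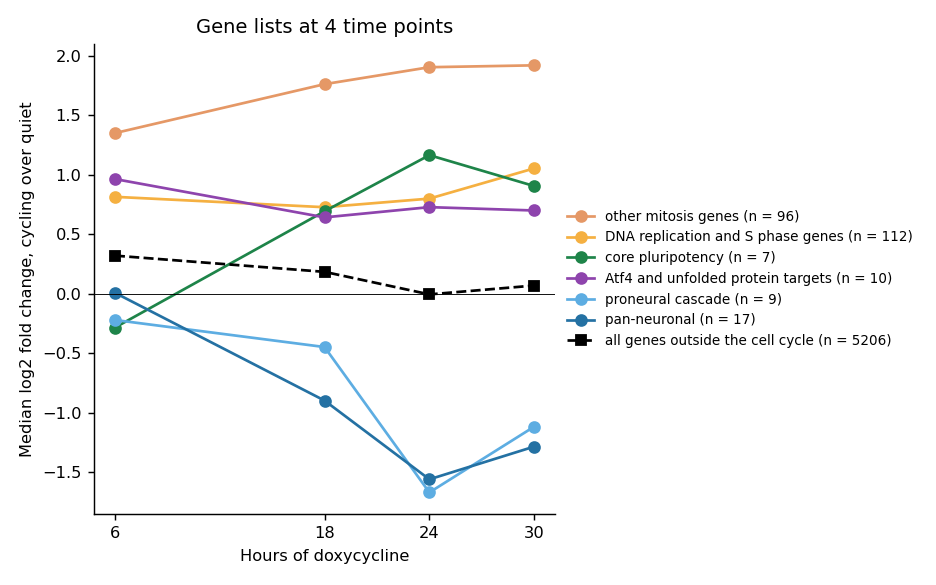
Median log2 fold change of cycling over quiet cells (y axis) for 6 gene lists and for all genes outside the cell cycle (dashed), at 6, 18, 24 and 30 h of doxycycline (x axis). Mitosis genes stay above 1.3 at all 4 times, while the pan-neuronal median is near 0 at 6 h and lies between -0.90 and -1.56 at the later times.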

How the data were processed

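Single cells were measured by SMART-Seq2. The authors deposited 1 table of TPM values, 27723 genes by 768 cells. Per the submitters' processing notes, Picard, bcl2fastq and mm10 were used, with no versions. No aligner or annotation is named in the sources used here. The columns sum to between 999999 and 1000001, no 2 are identical, and 0 columns belong to other samples. TPM keeps no depth, short transcripts can reach high TPM from few reads, and all values of a cell are shares of 1 total.

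Kept cells had at least 2000 genes above 0 (55 of 96 at 24 h and 57 at 30 h, 368 in all). Fold changes are log2 of the ratio of mean TPM + 1 (pseudocount 1), cycling over quiet, averaged over both times, which understates changes of weakly expressed genes. The filter used all kept cells of both times and passed 5424 genes, 218 of them on the 4 cell cycle lists. A gene could reach the mean of 10 TPM through 1 tertile alone. Called means at least 2-fold. With 1 sample per time no test was run. The named genes are the score genes, the 3 induced factors, the 12 highest and 12 lowest genes outside the cell cycle by the smaller of the 24 and 30 h changes, leaving out unnamed models and small RNAs, and up to 4 members of each list with the largest changes. Genes named beyond these were chosen after their values were seen. The members, the 37 gene lists and the rule were chosen with earlier results of these data known. Table names were matched to RefSeq symbols, 4605 directly and 571 by a synonym, and 248 had no match. Promoters came from RefSeq (GRCm38.p6, the mm10 assembly). The contrast was tested on simulated data. Alternatives were other pseudocounts, scalings, filters, cuts, scores and single time points. Python 3.11.15, numpy 2.4.6, pandas 2.3.3 and scipy 1.17.1 were used.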

Additional observations from a re-analysis of the deposited data

Results flagged for a closer look

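For 10 of the 142 named genes that passed the filter, cycling and quiet cells differed at least 2-fold one way at 6 h. At both 24 and 30 h these genes differed at least 2-fold the other way. Many named genes were picked for large changes at 24 and 30 h, and the share among all genes was not counted. The 10 are thus no more than a list. At 6 h alone, 17.8% of the 5206 genes outside the cell cycle were at least 2-fold higher in cycling cells and 7.41% at least 2-fold lower. The difference between the times was not tested, since each time is 1 sample, and depth differed more between the groups at 6 h than later. As log2 fold changes of cycling over quiet cells at 6, 24 and 30 h, Tdgf1 had -3.46, 4.40 and 3.81. At 6 h it was above 0 in 2 of 17 cycling and 5 of 17 quiet cells, and 1 quiet cell at 953 TPM made up most of the quiet mean of 74.4 TPM. Id2 had -1.26, 1.30 and 3.12, and Fabp7 had -2.19, 1.65 and 1.34. The linker histone genes H1f4 (-1.01, 2.88 and 3.27) and H1f5 (-2.36, 2.29 and 1.18) went the same way. The other 5 genes went from the cycling to the quiet side. St18 had 2.61, -5.03 and -3.66, with a mean of 6.49 TPM in cycling and 0.229 TPM in quiet cells at 6 h. Anxa2 had 1.23, -2.68 and -2.63, and Chga 1.29, -1.97 and -3.27. Of the neuronal tubulins, Tubb2a had 2.05, -2.49 and -1.69, and Tubb3 1.67, -1.56 and -2.22.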

How the results depend on the processing

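The 309 genes at least 2-fold higher in cycling cells became 102 with a pseudocount of 10 TPM, 1174 with no filter on low values, 1789 with all cells, 120 with the cells split at the median, 196 with the score corrected for gene number, 197 with depth-balanced tertiles, 1420 as a difference of mean log2(TPM + 1), 479 without each gene's highest cell, 468 at 24 h alone and 493 at 30 h alone. The 289 lower genes became 117, 1484, 155 (median split), 103 (mean log2), 462 (24 h) and 452 (30 h). The core pluripotency median of 1.03 was 0.40 with a pseudocount of 10 TPM, 0.61 unfiltered, 0.58 with cells of at least 4000 genes, 0.46 with all cells, 0.35 with a median split, 0.39 with outer quartiles, 0.42 with 6 other mitosis genes as score, 0.54 with 6 S phase genes and 0.84 as mean log2. The pan-neuronal median of -1.53 was -1.07 with a pseudocount of 10 TPM, -1.24 with a median split, -1.30 with 6 other mitosis genes, -1.18 as mean log2 and -1.28 at 30 h alone. With all 96 cells per time, low-gene cells included, it was 0.0042, the proneural median 0.14, Tuba3a -4.28, Car3 0.022, Chga 0.62, Dppa5a -0.22, Etv5 -0.59, Cntn2 0.64, Robo2 0.48, Cdkn1a 0.70, Pmaip1 -1.20, Dhcr7 2.13, Mvk 1.22, Stmn2 0.88 and Hprt -1.39. The sign also turned for Rhox8 with depth balance (0.84), Nanog at 30 h (-1.72), Notch1 at 24 h (-0.29), Dnajb9 with cells of at least 4000 genes (-0.10) and Uqcrfs1 with the S phase score (-0.56). The causes were not tested. With all cells, and with cells of at least 4000 genes, the filter was run anew, so counts and list medians there need not rest on the same genes. In the settings other than all cells, the 12 highest genes all kept their direction, as did the 12 lowest apart from Rhox8. Both sets were picked from these cells for a large change of the same sign at both times. Their direction was thus fixed for single times, other pseudocounts and no filter, and is no independent support. With all cells 7 of the 12 highest and 3 of the 12 lowest passed, of which 6 and 1 kept their direction. Depth limits the detection of low genes, so a 0 is not evidence of absence. No paired analysis was possible because the labels give no replicate numbers.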
